A study of Mus musculus with 2 samples.

Results

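Type I interferon antiviral effector genes were described in macrophages of the aorta from ApoE knockout mice modelled for PDR or SKYD syndrome. The genes are Ifit1, Ifit2, Ifit3, Isg15, Rsad2, Mx1, Oasl2, Oas1a, Usp18 and Ifi44. They were taken by gene symbol from the table of normalized expression, and all 10 were found among its 54532 genes. The study compared dyslipidemic mice with different syndromes of traditional Chinese medicine, Phlegm-Dampness Retention (PDR) and Spleen and Kidney Yang Deficiency (SKYD). All mice were male ApoE-/- mice on the C57BL/6J background, which lack apolipoprotein E and develop high blood lipids. Their age is listed as 6 weeks in both groups, and the age at sampling is not given in the sources used here. PDR mice received 4 weeks of high-fat feed. SKYD mice received the antithyroid drug propylthiouracil by gavage for 4 weeks, at a daily 10 mg/kg, followed by 2 weeks of the same feed. Macrophages were sorted from the aorta on F4/80 and CD11b, the cells of 5 mice were pooled, and 1 library was sequenced for each group. Syndrome, drug, time on the diet and length of the modelling, which was longer for SKYD, therefore cannot be told apart, and no difference below has a replicate check.

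Type I interferons are secreted proteins that signal through the receptor pair IFNAR1 and IFNAR2, the kinases JAK1 and TYK2, and a transcription factor complex that holds STAT2 and IRF9. This complex binds interferon-stimulated response elements upstream of the effector genes, whose products act on viral RNA, on nucleotide pools and on other proteins of the infected cell. Macrophages respond strongly to these interferons, and the same genes are also raised in part by interferon-gamma, which signals through a receptor of its own.

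The deposited unit was FPKM, fragments per kilobase of gene and per 1000000 of a library size. The study describes paired-end sequencing, and the counted fragments are called reads here. FPKM multiplied by gene length was a whole multiple of 1 step, to within 0.01 reads, for 100% of the genes above 0 in each library. The reads recovered in this way summed to 23086889 for PDR and 25427863 for SKYD. The library sizes behind the FPKM were 23487992 and 24993633, above the reads on genes in PDR and below them in SKYD, and how they were set is not given in the sources used here. Ratios of FPKM therefore differ from ratios of the shares of reads, which were taken over the reads on genes. A log2 difference is log2(FPKM + 1) of PDR minus log2(FPKM + 1) of SKYD, which understates the fold of genes with low levels, and plain FPKM ratios are given as folds. Intervals are exact 95% confidence intervals (Clopper-Pearson for folds and shares, Poisson for levels). They cover counting error only and not the spread between mice.

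All 10 members were higher in the PDR library, and the lower counting limit of each difference was above 0. Of these, 4 were more than 2-fold higher in PDR on the log2(FPKM + 1) scale, namely Ifit3, Ifi44, Mx1 and Rsad2. Mx1 had an FPKM below 1 in SKYD and passed the filter on low levels through PDR. Across the 10399 tested genes, those whose FPKM averaged at least 1 over both libraries, 7.38% exceeded 2-fold in the same direction. None of the 10 members was more than 2-fold higher in SKYD, where the share of all tested genes was also low, at 6.91%. The median difference was 0.97 for the members and -0.0035 for all tested genes. Oas1a (0.13) and Isg15 (0.17) lay below 0.35, which 75% of all tested genes did not exceed. With a pseudocount of 0.1 in place of 1, Oasl2 and Ifit2 also passed 2-fold, which made 6 of 10 members against 10.2% of the tested genes. Together the members took 0.0697% of reads in PDR (95% CI 0.0686 to 0.0708) and 0.0410% in SKYD (95% CI 0.0402 to 0.0418).

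**Figure D1:**
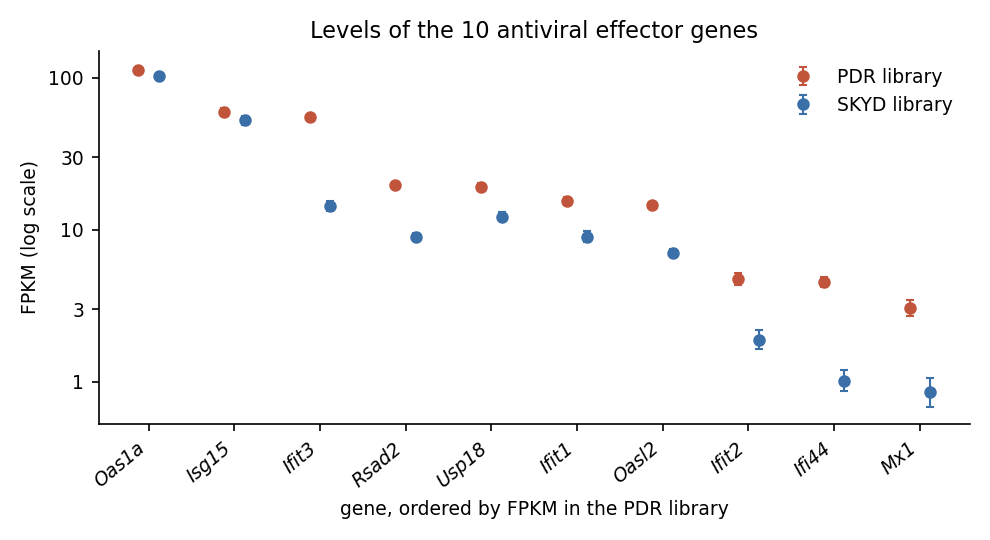
FPKM of each of the 10 members (log axis) in the PDR library (red) and the SKYD library (blue), with exact 95% Poisson intervals of counting error; each point is 1 pooled library. Oas1a, at 113 and 103, and Isg15, at 59.1 and 52.4, lie close together in both libraries, while the points of Ifit3, at 54.8 and 14.3, are far apart.

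The members fell into a broad range of levels. Per length, Oas1a was the most abundant in both libraries, and Mx1 was the least. In PDR, 93.2% of the tested genes had a lower FPKM than Oas1a, and 33.0% had a lower FPKM than Mx1. In SKYD these shares were 92.5% and 3.32%. The order of the other genes in PDR was Isg15, Ifit3, Rsad2, Usp18, Ifit1, Oasl2, Ifit2 and Ifi44. In SKYD it was the same except for Rsad2, which came after Usp18 and Ifit1. Some neighbours did not differ beyond their counting intervals. In PDR these were Isg15 and Ifit3, Rsad2 and Usp18, Ifit1 and Oasl2, and Ifit2 and Ifi44. In SKYD they were Ifit1 and Rsad2, and Ifi44 and Mx1. The make-up of the members' reads also differed, since Oas1a held 31.1% of them in PDR and 46.5% in SKYD, while Ifit3 held 14.0% and 5.98%.

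**Figure D2:**
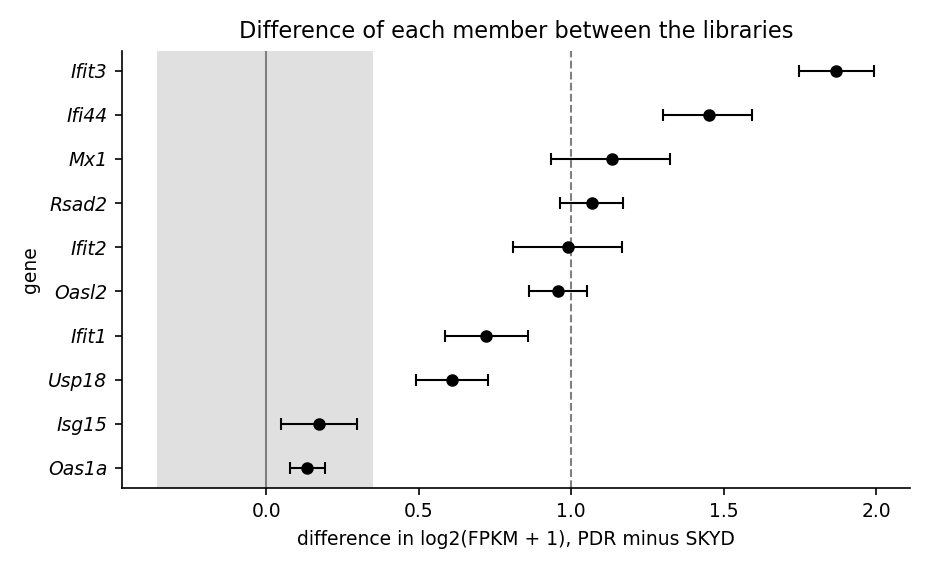
Difference in log2(FPKM + 1), PDR minus SKYD, of each member, with its 95% interval of counting error; the grey band holds the middle 50% of all tested genes, and the dashed line marks a 2-fold difference. Oas1a (0.13) and Isg15 (0.17) lie inside the band, and the other members lie to its right, up to Ifit3 (1.87).

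The IFIT genes encode proteins with tetratricopeptide repeats that bind foreign RNA or the translation machinery. Ifit3 (ENSMUSG00000074896, chromosome 19 from 34583531 to 34588731 of GRCm38, plus strand) had 2248 reads in PDR and 623 in SKYD, an FPKM of 54.8 and 14.3. This was a 3.84-fold higher level in PDR (95% CI 3.51 to 4.20) and a log2 difference of 1.87 (95% CI 1.75 to 1.99), whose interval lay above those of the other 9 members on this scale. In human cells IFIT3 is described as a partner that stabilizes the binding of other IFIT proteins to RNA, and this role was not measured here. Ifit1 (ENSMUSG00000034459), which binds RNA with incompletely methylated caps, had 967 and 598 reads, an FPKM of 15.5 and 9.01. It was 1.72-fold higher in PDR (95% CI 1.55 to 1.91). Ifit2 (ENSMUSG00000045932) had 438 and 186 reads, an FPKM of 4.75 and 1.90, and was 2.51-fold higher (95% CI 2.11 to 2.99). The IFIT members thus all differed in the same direction, with the smallest fold in Ifit1.

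The antiviral enzymes ran from a 1.10-fold higher level in PDR for Oas1a to a 3.59-fold higher level for Mx1. Rsad2 (ENSMUSG00000020641, chromosome 12) encodes viperin, which makes a nucleotide that ends RNA synthesis by viral polymerases. It had 2015 reads in PDR and 967 in SKYD, an FPKM of 19.8 and 8.93, and was 2.22-fold higher in PDR (95% CI 2.05 to 2.40). Mx1 (ENSMUSG00000000386, chromosome 16) encodes a dynamin-like GTPase that blocks influenza virus in the nucleus, and the C57BL/6 strain is known to carry a defective allele. Its reads were 273 and 81, an FPKM of 3.07 and 0.856, and it was 3.59-fold higher in PDR (95% CI 2.79 to 4.65). Gene totals cannot distinguish the exons that this allele lacks. Oas1a (ENSMUSG00000052776, chromosome 5) encodes an oligoadenylate synthetase, which senses double-stranded RNA and activates the nuclease RNase L. It had 5004 and 4845 reads, an FPKM of 113 and 103, and was 1.10-fold higher in PDR (95% CI 1.06 to 1.14). Oasl2 (ENSMUSG00000029561, chromosome 5), an OAS-like gene whose protein carries ubiquitin-like domains, had 2189 and 1123 reads, an FPKM of 14.6 and 7.05. Its level was 2.07-fold higher in PDR (95% CI 1.93 to 2.23), so the more abundant synthetase gene hardly differed and the OAS-like gene did.

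Isg15 and Usp18 belong to the same protein modification system. Isg15 (ENSMUSG00000035692, chromosome 4) encodes a ubiquitin-like protein that is attached to other proteins, and had 1050 reads in PDR and 990 in SKYD, an FPKM of 59.1 and 52.4. Its level was 1.13-fold higher in PDR (95% CI 1.03 to 1.23). Usp18 (ENSMUSG00000030107, chromosome 6) encodes the protease that removes ISG15 and also restrains signalling at IFNAR2. Its reads were 1252 and 850, an FPKM of 19.1 and 12.2, and it was 1.57-fold higher in PDR (95% CI 1.44 to 1.71). Of the enzymes that attach ISG15, the activating enzyme gene Uba7 had 901 and 353 reads and a log2 difference of 1.11. Ube2l6, the conjugating enzyme gene, had 11448 and 8409 reads and a difference of 0.53. The ligase genes went different ways, with 247 and 103 reads for Herc6, whose mean FPKM was below 1, and 247 and 498 for Trim25, a log2 difference of -0.66. The modifier gene therefore differed less between the libraries than the genes of the activating, conjugating and removing enzymes.

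Ifi44 (ENSMUSG00000028037, chromosome 3) is strongly induced by interferons, and the biochemical role of its protein is less settled. It had 650 reads in PDR and 156 in SKYD, an FPKM of 4.52 and 1.02. This was the largest plain ratio among the members, 4.43-fold higher in PDR (95% CI 3.72 to 5.31). The interval of this ratio overlapped those of Ifit3 and Mx1. The log2(FPKM + 1) difference of Ifi44 was 1.45 (95% CI 1.30 to 1.59). With a pseudocount of 0.1 the order of Ifi44 and Ifit3 turned, at 2.05 and 1.93, as it did with CPM, counts per 1000000 reads on genes, at 2.03 and 1.95. Its paralog Ifi44l had 0 reads in both libraries, which allows up to 3 in each.

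Some of these genes lie in clusters with close copies. On chromosome 19, 6 IFIT genes lie within 99.3 kb, and all were higher in PDR. The largest difference among them, and among all paralogs tested, was that of Ifit1bl1, with 2134 reads in PDR and 289 in SKYD and a log2 difference of 2.75 (95% CI 2.60 to 2.90). Ifit1bl1 lies between Ifit3 and Ifit3b, and on this scale the differences were smaller at both ends of the cluster. The Oas cluster on chromosome 5 was less uniform. Oas1g had 1375 and 914 reads and a difference of 0.65, whereas Oas1b, which is truncated in most laboratory strains, had 47 and 82 reads and a difference of -0.40. Oas1d, Oas1e, Oas1f and Oas1h had 0 reads in both libraries. Oasl1, a negative regulator of Irf7 translation that lies beside Oasl2, had 441 and 199 reads and a difference of 1.02. In total, 9 of 16 paralogs and neighbours were tested, 8 of these were higher in PDR, 5 by more than 2-fold, and their median was 1.02. Of these 5, Ifit1bl2 had an FPKM of 1.90 in PDR and 0.297 in SKYD and was tested through PDR only, and without a filter on FPKM the median of the list was 0.70.

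**Figure D3:**
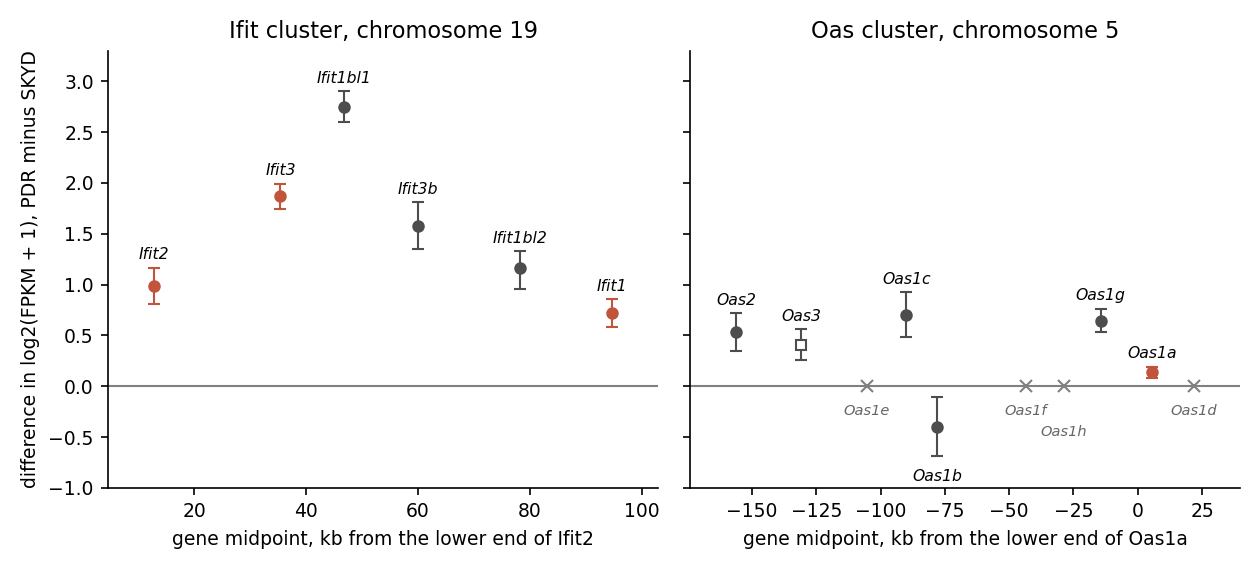
Difference in log2(FPKM + 1), PDR minus SKYD, with 95% counting intervals, against the distance of each gene's midpoint from the lower end of Ifit2 (left) or Oas1a (right); red points are members, grey points are paralogs, the open square has a mean FPKM below 1, and crosses have 0 reads in both libraries. All 6 IFIT genes lie above 0, with Ifit1bl1 at 2.75, while Oas1b lies at -0.40.

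Shared sequence limits how well reads can be placed on these copies. Of the 100-base windows in Oas1a transcripts, 40.9% also occurred in another gene, and 730 of 1786 windows were shared with Oas1g. For Ifit3 the share was 31.7%, with 521 of 1646 windows found in Ifit3b. The values of these pairs are uncertain as single genes. Taken as pairs, Ifit3 and Ifit3b had 2628 reads in PDR and 725 in SKYD, a 3.86-fold higher level (95% CI 3.55 to 4.19), and Oas1a and Oas1g had 6379 and 5759, a 1.18-fold higher level (95% CI 1.14 to 1.22). Summing the pairs thus left Ifit3 with a large and Oas1a with a small fold. The shares were 3.29% for Ifit1, all with Ifit1bl2, 0.929% for Mx1 with Mx2, and 27 of 2690 windows for Usp18 with Gm44148, and no window of the other members was shared. Mx2 had 40 and 35 reads. Usp18 overlaps Gm44148, a lincRNA gene on the other strand with 11 and 27 reads, and reads of such a pair cannot be told apart without strand.

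Upstream sequence is shown for the members that hold an interferon-stimulated response element core, and for the copies Oas1g and Ifit3b. RefSeq windows (GRCm38.p6) of 300 bases, with 250 before and 50 after the start, matched 8 of the 10 members in 9 windows, not Mx1 or Usp18. The core was searched as GAAANNGAAA on both strands, where it reads TTTCNNTTTC on the other. It was present in 5 of 8 members, in 4.46% of the 7250 tested genes with a window, and in 3.44% of all 32851 windows. With no test of the differences, it was present in 5 of 5 guanylate-binding protein genes, 9 of 12 p200 genes, 7 of 10 immunity-related GTPase genes, 6 of 11 paralogs and neighbours, 10 of 29 other interferon-stimulated genes and 2 of 6 interferon-gamma genes with a window. Of the other lists, it was present in 11 of 20 ligand genes, most of which had 0 reads, 3 of 9 sensors, 1 of 10 transducers, 1 of 4 negative regulators, 0 of 5 receptors and 0 of 4 ISG15 enzyme genes. The stretches below run 5′ to 3′ in the direction of the gene, end before its start, and have the core in capitals. They come from chr4:156200855-156200916 (minus strand) for Isg15, chr5:120907526-120907565 (minus) for Oas1a, chr5:120887614-120887651 (minus) for Oas1g, chr12:26456543-26456592 (minus) for Rsad2, chr19:34583353-34583436 (plus) for Ifit3, chr19:34607749-34607832 (plus) for Ifit3b and chr19:34640765-34640833 (plus) for Ifit1.
Isg15: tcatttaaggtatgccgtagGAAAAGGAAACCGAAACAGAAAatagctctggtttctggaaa
Oas1a: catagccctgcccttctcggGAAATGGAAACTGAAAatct
Oas1g: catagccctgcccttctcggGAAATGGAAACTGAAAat
Rsad2: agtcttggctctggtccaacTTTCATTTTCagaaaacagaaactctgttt
Ifit3: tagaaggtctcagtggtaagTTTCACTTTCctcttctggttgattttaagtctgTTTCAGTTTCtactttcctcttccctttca
Ifit3b: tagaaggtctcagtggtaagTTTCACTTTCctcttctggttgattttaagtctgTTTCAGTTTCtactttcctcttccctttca
Ifit1: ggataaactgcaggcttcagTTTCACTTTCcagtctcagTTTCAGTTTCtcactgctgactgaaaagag

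Isg15 held 3 overlapping cores from -78 to -57, counted from the start, and Oas1a held 2 overlapping cores from -20 to -5. Ifit3 held 2 separate cores, at -156 and -122, and Ifit1 held 2, at -104 and -85. The genes with the smallest differences, Oas1a and Isg15, thus carried the core as did Ifit3, whose difference was the largest on the log2(FPKM + 1) scale. Ifi44, which had the largest plain ratio, though not beyond counting error, had no core in its window. Over the 5 members with the core the differences ran from 0.13 to 1.87, and over the 3 without it in their windows (Ifi44, Oasl2 and Ifit2) from 0.96 to 1.45. The printed stretch was the same 84 bases in Ifit3 and Ifit3b, whose log2 differences were 1.87 and 1.58. Oas1a and Oas1g shared all 38 bases printed for Oas1g, and their differences were 0.13 and 0.65. Both cores of Ifit1 also lie upstream of Ifit1bl2, which runs in the opposite direction. Ifit1 had a 1.72-fold higher level in PDR, and Ifit1bl2, with 150 and 25 reads, a 6.38-fold higher level (95% CI 4.16 to 10.2). The gamma-activated site TTCNNNGAA, which reads the same on both strands, was found in Oas1a at -98 and in Ifit2 at -241, and in 8.30% of all windows. A match describes the letters only.

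The interferon genes themselves had few or no reads. Of 21 ligand genes, 19 had 0 reads in both libraries, including all interferon-alpha genes listed, and a count of 0 allows up to 3 reads. Ifnb1, the gene of interferon-beta, had 0 reads in PDR and 12 in SKYD, at least 3.76-fold higher in SKYD with PDR set at its limit of 3 reads, and the lower limit of the exact interval was 2.61-fold. Ifng had 39 and 6 reads. The ligand gene with reads of type I thus differed in the opposite direction from the effector genes, at counts close to the limit.

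Receptor genes went both ways, with a median of 0.06 over 5 of 6 tested. Ifnar1 had 1088 reads in PDR and 761 in SKYD, a log2 difference of 0.52, and Ifnar2 had 2151 and 2865, a difference of -0.31. The receptor pair of type I interferon therefore differed in opposite directions. For interferon-gamma, Ifngr1 had -0.55 and Ifngr2 0.60, Il10rb of the interferon-lambda receptor had 0.06, and Ifnlr1 had 15 and 6 reads.

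Among 10 transducer genes, 8 were higher in PDR, 3 by more than 2-fold, with a median of 0.56. Stat2 had 536 reads in PDR and 267 in SKYD, a log2 difference of 0.79. Irf9, the DNA-binding subunit of the complex with STAT2, had 2201 and 1677 reads and a difference of 0.45, so both genes were higher in PDR. The kinase genes had log2 differences of 0.67 for Tyk2, 0.31 for Jak2 and -0.10 for Jak1. Of the other interferon regulatory factors, Irf1 had 1.79, Irf8 1.27, Irf7 1.04, Irf5 0.45 and Irf3 -0.04, which turned to 0.00 as CPM.

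Genes that sense nucleic acids had a median of 0.47, with 9 of 10 tested genes higher in PDR. None of them was past 2-fold in PDR, against 7.38% of all tested genes. Of the 9, Mb21d1 had an FPKM below 1 in SKYD and was tested through PDR only, and its interval included 0. The most abundant were Myd88, an adaptor of Toll-like receptors (-0.33), Tmem173, which encodes STING (0.58), and Dhx58 (0.56), and the largest difference was that of Ddx58, which encodes RIG-I (0.79). Negative regulators were mixed, with a median of 0.05 over 5 genes. Socs3 (-1.12) and Socs1 (-0.99), which inhibit JAK kinases, were higher in SKYD, while the phosphatase genes Ptpn6 (0.70) and Ptpn2 (0.15) were higher in PDR. The feedback genes Socs1 and Usp18 thus differed in opposite directions.

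Other interferon-stimulated genes had a median of 0.59, with 28 of 36 tested genes higher in PDR. More than 2-fold higher were 3 in PDR and 3 in SKYD. The 3 in PDR were 8.33% of the list, near the 7.38% of all tested genes. In SKYD the share of all tested genes was 6.91%. Of the 28, Parp14 was tested through PDR only. As plain ratios, Parp9 (2.09), Parp14 (2.54), Trim21 (2.23) and Tor3a (2.05) also passed 2-fold in PDR, and Ifi27 (2.01) in SKYD. The most abundant gene, Ifitm3, which blocks viral entry, had an FPKM of 2532 in PDR and 3696 in SKYD, a log2 difference of -0.55. Ifi27l2a had 3378 and 2559, a difference of 0.40. The largest differences were 1.57 for Phf11b and -1.52 for Ifitm2, which was also the third in abundance. So the entry-blocking Ifitm3 and Ifitm2 genes lay on the other side of 0 from the 10 members, although both groups are induced by interferons.

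**Figure D4:**
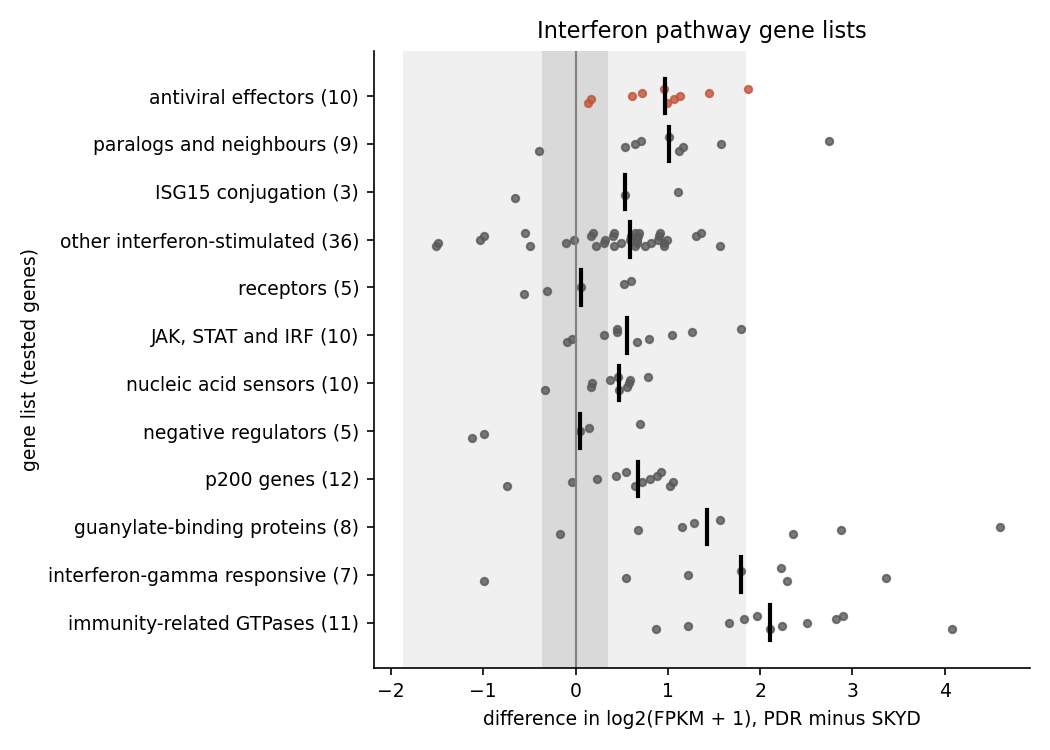
Difference in log2(FPKM + 1), PDR minus SKYD, of every tested gene (points) of each pathway list, with the list's median (black bar) and the number of tested genes in brackets; the dark and light grey bands hold the middle 50% and 95% of all tested genes. The members (red) have a median of 0.97, the receptors 0.06 and the immunity-related GTPases 2.11.

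Interferon-inducible families with other roles were set beside the members. The immunity-related GTPases, which act on vacuoles that hold intracellular microbes, had a median of 2.11, with 10 of 11 tested genes past 2-fold in PDR. The most abundant of them were Ifi47 (1.82), Igtp (1.67) and Gm12250 (2.51), and the differences ran from 0.87 for Gm5431 to 4.08 for Iigp1. The guanylate-binding proteins, large GTPases of cell-autonomous defence, had a median of 1.42 over 8 tested genes, 6 of them past 2-fold, led by Gbp2 (2.88), Gbp3 (2.35) and Gbp2b (4.60), with Gbp8 lowest (-0.17). In each family 1 of the genes past 2-fold, F830016B08Rik and Gbp6, had an FPKM below 1 in SKYD and was tested through PDR only. Both families are known for induction by interferon-gamma in macrophages, and which interferon lay behind their values was not tested. The medians of both families were above that of the antiviral effectors.

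The p200 genes, which include sensors of DNA, had a median of 0.68 over 12 tested genes. They ran from -0.74 for Ifi207 to 1.05 for Ifi214. Past 2-fold in PDR were 2 of them, 16.7% of the tested p200 genes against 7.38% of all tested genes. Ifi214, 1 of those 2, had an FPKM of 1.72 in PDR and 0.311 in SKYD and was tested through PDR only. Their most abundant genes were Ifi204 (0.24), Ifi211 (0.89) and Ifi209 (1.02). Genes more selective for interferon-gamma had a median of 1.79 over 7 tested genes, 5 of them past 2-fold, with Fcgr1 (0.54), Irf1 (1.79) and Cxcl9 (2.29) the most abundant. Among these, Cxcl10, a chemokine gene that both kinds of interferon induce, had the largest difference, 3.37, and Socs1 the lowest. The median of the antiviral effectors was thus below those of the immunity-related GTPases, the interferon-gamma genes and the guanylate-binding proteins, in no fixed order among these, and above that of the p200 genes. It was also below the 1.02 of the paralogs and neighbours, whose median fell to 0.70 without a filter on FPKM. These differences between lists carry no test.

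Markers of the sorted cells and of other cells moved as well. In bulk RNA, fewer cells of a type and less RNA per cell cannot be told apart. The F4/80 gene Adgre1 had a log2 difference of -0.10 and the CD11b gene Itgam of -0.64. Of 10 macrophage markers 8 were lower in PDR, with a median of -0.61, and they took 3.27% of reads in PDR and 5.91% in SKYD. The most abundant gene of a list is given per length, by mean FPKM over both libraries, and here was Lyz2. It held 686737 of the 755334 reads of this list in PDR and 1359594 of 1502283 in SKYD. Of the 10 macrophage markers, 8 thus differed in the opposite direction from the antiviral effectors. The exceptions were Csf1r (0.35) and Fcgr1 (0.54), which is also among the interferon-gamma genes above. Monocyte markers were higher in PDR in 5 of 5 tested genes, with a median of 0.45 and 1.17% against 0.635% of reads. Ccr2 differed by only 0.04, and Vcan, whose mean FPKM was below 1, had 143 and 343 reads and a difference of -0.46. Their most abundant gene was Chil3 (0.86), and Ly6c2 had 1.49. Csf1r, Fcgr1, Ccr2, Vcan and Ly6c2 were named here after their values were seen. The part of these cell types in the interferon genes was not tested.

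Lymphoid markers differed more. B cell markers were more than 2-fold higher in PDR in 5 of 5 tested genes, with a median of 2.25 and 0.356% against 0.0668% of reads. Cd79b was the highest by mean FPKM, although Cd79a was above it in SKYD, at 178 against 168. Ms4a1 in PDR and Cd79a in SKYD had the most reads. NK cell markers were higher in 6 of 6, with a median of 1.29 and 0.0525% against 0.0204% of reads, most abundantly Gzma. Prf1, named after its values were seen, had an FPKM below 1 in SKYD and was tested through PDR only. T cell markers went the other way in 6 of 6, with a median of -2.38 and 0.0389% against 0.199% of reads. Cd3d was the highest by mean FPKM, although Lck was above it in PDR, at 47.9 against 42.3. Lck in PDR and Cd3g in SKYD had the most reads. Markers of B and NK cells therefore moved with the effector genes and those of T cells against them. Plasma cell markers had a median of 0.60 over 4 genes and took 0.779% and 0.674% of reads, most abundantly Jchain. Their part was not tested.

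Plasmacytoid dendritic cells are a major source of type I interferon. Their markers had a median of -1.28, with 5 of 7 tested genes lower in PDR and 0.0854% against 0.108% of reads. Of those 5, Siglech, Ccr9 and Klk1 had an FPKM below 1 in PDR and were tested through SKYD only. The 2 tested genes higher in PDR were Spib (0.94) and Tcf4 (0.32), and Tcf4 was tested through PDR only. Pacsin1 (0.27) had a mean FPKM below 1. Most of these reads were on Ly6d (-0.03, and 0.02 as CPM), which other lymphoid cells share. Klk1 had 0 reads in PDR and 1067 in SKYD, at least 334-fold higher in SKYD with PDR set at 3 reads, and the lower limit of the exact interval was 271-fold. Markers of conventional dendritic cells were lower in PDR in 4 of 4 tested genes, with a median of -0.62 and 0.0101% against 0.0305% of reads, most abundantly Cd209a. Xcr1 was tested through SKYD only, and Clec9a, with 79 reads in each library (0.04), and Zbtb46 (-0.04) were left out by the filter on low levels. The dendritic cell markers other than Klk1, Ly6d and Cd209a were named after their values were seen, and the part of these cells was not tested.

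Of the remaining lists, hepatocyte markers were higher in PDR in 6 of 6 genes, with a median of 1.71 and 0.207% against 0.0632% of reads, with Apoa2 highest per length and Alb highest in reads. Neutrophil markers were higher in 5 of 6, with a median of 0.49 and 0.270% against 0.204% of reads, with S100a9 highest per length and S100a8 highest in reads. Both thus moved with the effector genes, and their part was not tested. Erythroid markers had a median of 0.01 over 4 genes and took 1.42% and 1.87% of reads, most abundantly Hba-a1. Platelet markers had 0.20 over 3 genes and took 0.0198% and 0.105%, most of them on Pf4 (-2.72). Of vessel wall cells, endothelial markers had 659 and 467 reads (most on Pecam1) and smooth muscle markers 65 and 104, all on Acta2. Fibroblast markers had 1524 and 6300 reads, 0.00660% against 0.0248%, most of them on Dcn (-1.87). The smooth muscle markers Myh11, Cnn1 and Tagln had 0 reads in both libraries.

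**Figure D5:**
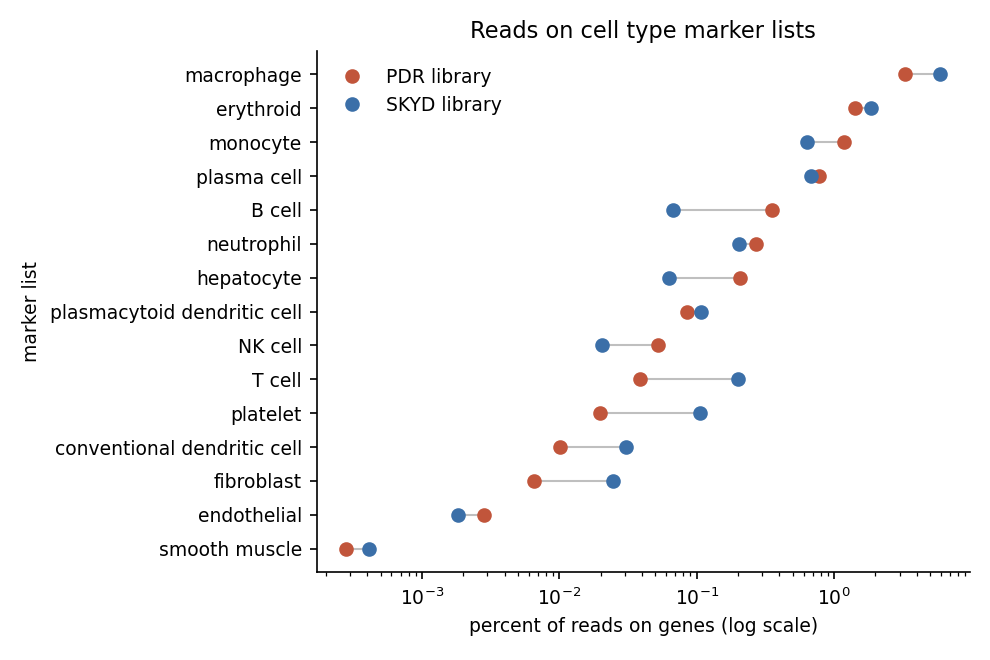
Percent of all reads on genes (log axis) that fell on each cell type marker list in the PDR library (red) and the SKYD library (blue); each point is 1 pooled library. Macrophage markers took 3.27% in PDR and 5.91% in SKYD, B cell markers 0.356% and 0.0668%, and T cell markers 0.0389% and 0.199%.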

How the data were processed

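The authors aligned the reads with TopHat2 2.0.9 and Bowtie2 2.0.6, counted them per gene with HTSeq 0.6.1 and deposited FPKM for 54532 genes. Their processing notes name mm9, but 98.3% of the 54409 genes shared with GENCODE M21 have its GRCm38 positions, including the 10 members. Reads were recovered from FPKM and gene length. Differences in log2(FPKM + 1) were taken for genes averaging an FPKM of at least 1. With 1 library per group no p-value was computed, and a count of 0 allows 3 reads. The members and lists were chosen with earlier results of these data known. The text names all members, the ligand, receptor, transducer and ISG15 enzyme genes with reads, of other process lists the 3 highest by mean FPKM and the largest difference each way, of marker lists the most abundant gene and those at 0, and copies of or genes overlapping a member. Others were chosen after their values were seen. A gene of the transducer list is not reported here and was left out of that list's values. Alternatives were other pseudocounts, scalings, filters and fold thresholds. The steps were tested on simulated data. Tables were handled with pandas 2.3.3 and numpy 2.4.6 in Python 3.11.15, intervals with scipy 1.17.1 and plots with matplotlib 3.10.9.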

Additional observations from a re-analysis of the deposited data

How the results depend on the processing

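All 10 members were higher in PDR in every setting in which they were tested (7 of 7 at a mean FPKM of at least 5), and none passed the fold threshold in SKYD. The cause of the moves below was not tested. The median of the members was 1.13 as CPM and 0.72 at a mean FPKM of at least 5. With that filter 2 members passed 2-fold in PDR, as did 464 of 5760 tested genes (8.06%), and 373 (6.48%) passed in SKYD. At 1.5-fold, 8 members passed in PDR, with 1574 (15.1%) of all tested genes in PDR and 1562 (15.0%) in SKYD. At 4-fold, 0 members passed, with 194 (1.87%) and 216 (2.08%). Of 8795 protein-coding genes, 542 (6.16%) passed 2-fold in PDR, 4 of them members, and 473 (5.38%) in SKYD. The ratio without a pseudocount, chosen after seeing the data, put 6 members past 2-fold, as did pseudocounts of 0.1 and 0.01, TPM and CPM. The share of all tested genes past 2-fold in PDR rose too, to 10.5% without a pseudocount and with 0.01, 10.2% with 0.1, 8.69% as TPM and 9.05% as CPM. Ifi44 was above Ifit3 without a pseudocount, with 0.1 and 0.01 and as CPM, and below it as TPM and centred on the median. The guanylate-binding protein median was 2.0 and 2.11 with pseudocounts of 0.1 and 0.01, 2.12 without one, 1.63 as TPM, 1.99 as CPM, 1.16 without a filter and 2.35 at a mean FPKM of at least 5. It was above that of the interferon-gamma genes with these pseudocounts, without one, as CPM and at a mean FPKM of at least 5, and below it as reported, as TPM, centred on the median, without a filter and for protein-coding genes. For the immunity-related GTPases it was 2.53, 2.57 and 2.57 with these pseudocounts, 2.25 as CPM, 1.97 without a filter, 2.24 at a mean FPKM of at least 5 and 2.04 for protein-coding genes. The p200 median was 0.85 as CPM. The median of the interferon-gamma genes ran from 1.22 without a filter to 2.01 at a mean FPKM of at least 5, that of the paralogs and neighbours from 0.70 to 1.30 at the same settings, and that of the transducers from 0.45 at a mean FPKM of at least 5 to 0.72 as CPM. Of 60 values for single members under alternatives, 18 moved beyond their counting interval, most in Ifi44, which ran from 1.45 to 2.15, and Mx1, from 1.13 to 1.84. None changed direction. No paired analysis was possible because each group has 1 library, and no library could be left out.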
